A study of Caenorhabditis elegans with 2 samples.

Results

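The cuticle collagen genes of Caenorhabditis elegans were examined for binding of DMD-6, a transcription factor with the DM domain that Doublesex of Drosophila and MAB-3 of the worm also carry, in whole L4 larvae. The set comprised the protein-coding genes named col- followed by a number and 18 further collagen genes named for a body-shape or blister phenotype (dpy-2, dpy-3, dpy-4, dpy-5, dpy-7, dpy-8, dpy-9, dpy-10, dpy-13, dpy-14, dpy-17, rol-6, rol-8, sqt-1, sqt-2, sqt-3, bli-1 and bli-2), and it held 174 of the 19973 protein-coding genes on the nuclear chromosomes. A gene counted as having a peak when a summit, the highest point of a peak, fell no more than 1000 bp before or 200 bp after one of its annotated start sites. The worms were of strain RJP5356, in which CRISPR had placed GFP, an auxin-inducible degron (AID), a TEV site and 3xFLAG in the dmd-6 gene on chromosome IV (allele rp168), and all samples carried that allele. They were synchronised by starving first-stage larvae after bleaching and were collected at 48 hours as L4 larvae, the last larval stage, with sex not recorded. Chromatin was precipitated with an antibody against GFP and sequenced (ChIP-seq) in 2 biological replicates of 1 group. A control experiment is named in the labels and was not analysed here, and there was no second condition, so the comparisons lie between replicates and between these genes and the rest of the genome.

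The nematode cuticle is an extracellular matrix made mostly of small collagens. The hypodermis secretes a new cuticle before each moult, and the larvae sampled here precede the last moult, in which the adult cuticle is made. Within the endoplasmic reticulum prolyl hydroxylases and protein disulphide isomerases modify the chains and help them to join in triple helices, and proteases then trim them before peroxidase-type enzymes cross-link them through tyrosines. Some collagens form the circumferential furrows, others the annuli between them, and in the adult others build the struts that join the cortical and basal layers. The label could be checked only by name and gene structure, since peak lists hold no expression values. 1 member stands outside it: col-99 is known to encode a transmembrane collagen that is not a structural protein of the cuticle.

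Collagen genes had a peak at under the share seen over all protein-coding genes. In the list called on both replicates together, 15 of the 174 genes had a peak (8.62%, exact 95% binomial interval 4.91 to 13.8%), against 19.1% of all protein-coding genes and 19.2% of the 19799 others. The 15 genes were col-38, col-62, col-63, col-71, col-74, col-80, col-119, col-124, col-140, col-147, col-151, col-159, col-160, col-184 and col-185, and they held 14 peaks, as col-159 and col-160 share 1. No peak of a collagen gene was among the 1000 with the highest signal, where 3.17% of all protein-coding genes had one. The intervals cover only the counting of genes, and no test across samples can be made with 1 group. Because whole animals were used, the lists do not tell in which cells a peak arose.

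**Figure D1:**
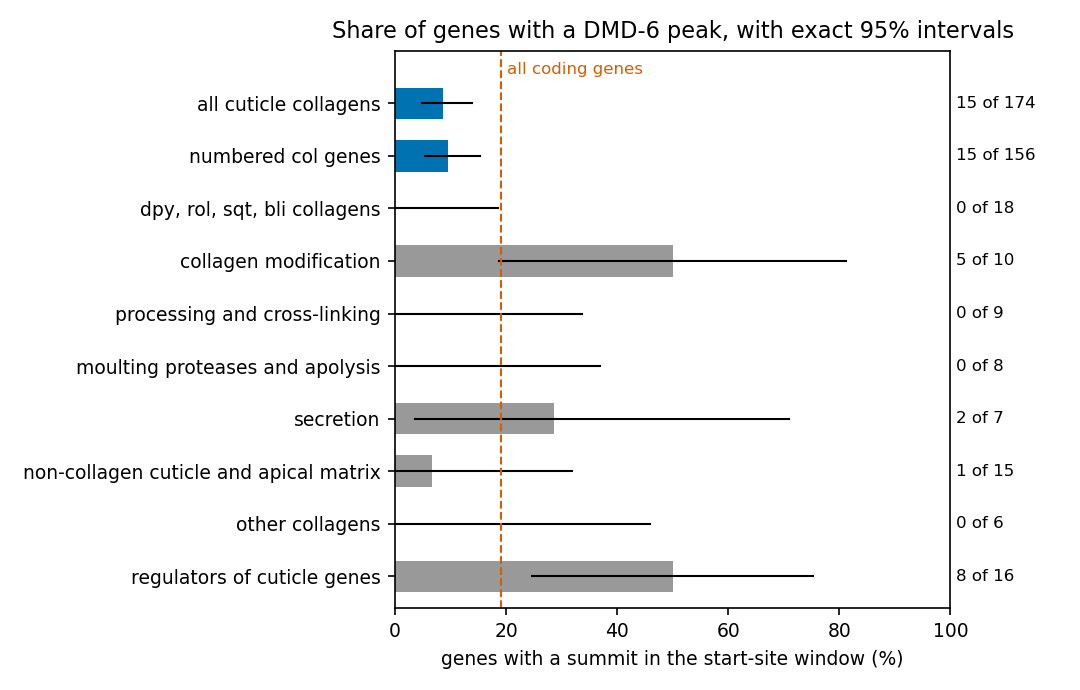
Bars give the share (%) of genes with a summit in the start-site window, for the cuticle collagens and their named subgroups (blue) and for 7 lists of related genes (grey). Black lines are exact 95% binomial intervals, the dashed line is the share over all protein-coding genes (19.1%), and the numbers at the right are genes with a peak of all genes in the list; the collagens lie at 8.62%.

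The sequence at the summits is shown first, for 7 of the peaks chosen to cover the strongest peak (col-74), a peak on a tRNA gene (col-185), peaks next to another coding gene (col-38 and col-124), the pair col-159 and col-160, and peaks with a collagen as the nearest gene (col-184 and col-140). Each line gives the summit base and 50 bases on either side, 5′ to 3′ on the strand of the collagen gene, read from the RefSeq copy of WBcel235, which the files call ce11. Capitals mark matches on either strand to 7 words: ACANTGT and TACATTGT, which resemble the site of animal DM-domain proteins, TGTTGC, part of the MAB-3 site, AGATAA and TGATAA, read by GATA factors, AAGGTCA, read by nuclear receptors, and TATAAA, the TATA box. TACATTGT contains a match to ACANTGT, and AGATAA and TGATAA share GATAA.
col-74, chrII:5830080-5830180, plus strand: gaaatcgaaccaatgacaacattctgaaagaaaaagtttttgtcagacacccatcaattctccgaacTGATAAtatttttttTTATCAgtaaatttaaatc
col-185, chrX:13511983-13512083, minus strand: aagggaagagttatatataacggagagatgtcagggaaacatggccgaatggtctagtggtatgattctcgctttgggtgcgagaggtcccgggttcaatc
col-38, chrII:8569468-8569568, minus strand: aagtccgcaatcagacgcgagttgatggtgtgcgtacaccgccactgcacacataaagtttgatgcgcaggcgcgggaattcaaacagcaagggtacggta
col-124, chrIV:10216197-10216297, plus strand: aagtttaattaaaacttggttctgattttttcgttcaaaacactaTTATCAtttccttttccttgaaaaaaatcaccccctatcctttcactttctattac
col-159 and col-160, chrV:13202465-13202565, minus strand: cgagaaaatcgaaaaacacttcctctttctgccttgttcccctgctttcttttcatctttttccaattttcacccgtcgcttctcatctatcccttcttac
col-184, chrX:13469284-13469384, plus strand: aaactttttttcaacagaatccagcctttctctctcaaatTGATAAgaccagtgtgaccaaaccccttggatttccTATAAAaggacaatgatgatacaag
col-140, chrV:5836971-5837071, minus strand: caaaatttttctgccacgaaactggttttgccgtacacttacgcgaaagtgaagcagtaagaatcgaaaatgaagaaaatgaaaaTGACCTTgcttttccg

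The words resembling DM-domain sites were absent from these windows. Of the 14 windows, 0 held ACANTGT, TACATTGT or TGTTGC (exact interval up to 23.2%), against 3.78%, 0.422% and 5.68% of the windows of the same length at the 3787 other summits in coding gene windows. TGATAA was in 4 of the 14 windows (28.6%, exact interval 8.39 to 58.1%), against 30.9% at the other summits, and AGATAA was in 2 (14.3%), against 9.35%. AAGGTCA was found at 1 of them, col-140 (7.14%, exact interval 0.181 to 33.9%), against 0.871% of the other windows. The windows had a median GC content of 37.6%, against 41.6% at the other summits. A match is a description of the letters and not a binding site, and 14 windows leave wide intervals.

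The promoters of the collagen genes held the TATA word more often than other promoters did. From 250 bp upstream to 50 bp downstream of the first start site, TATAAA occurred in 115 of 174 collagen promoters (66.1%, exact interval 58.5 to 73.1%), against 37.8% of the 19799 others. It was found in 9 of the 15 genes with a peak (60.0%) and 106 of the 159 without (66.7%). AGATAA was found in 0 of the 15 promoters with a peak (exact interval up to 21.8%) and in 50 of the 159 without (31.4%), against 21.2% of the other promoters. The 21.2% lies within the interval of the 15, and a difference between collagens with and without a peak was not tested. In the 18 dpy, rol, sqt and bli promoters AGATAA was found in 9 (50%, exact interval 26.02 to 74.0%). ACANTGT and TGTTGC were about as common in collagen promoters (10.3% and 13.8%) as in others (8.63% and 13.6%).

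All 18 collagens named for a phenotype lacked a peak. They comprise the 6 furrow collagens dpy-2, dpy-3, dpy-7, dpy-8, dpy-9 and dpy-10, the 10 other collagens of body shape dpy-4, dpy-5, dpy-13, dpy-14, dpy-17, rol-6, rol-8, sqt-1, sqt-2 and sqt-3, and the strut collagens bli-1 and bli-2, which are needed for an unblistered adult cuticle. For 0 of 18 genes the exact interval reaches 18.5%, just under the 19.1% over all genes. The numbered col genes held all the peaks, at 15 of 156 (9.62%, exact interval 5.48 to 15.4%). Whether the named and the numbered genes differ was not tested, and their intervals overlap.

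The nearest summits to the phenotype-named genes lay outside the window. The closest was at sqt-2, a collagen of body form, 1307 bp downstream of its start with a signal of 184.4. At dpy-17, a collagen that is secreted together with SQT-3, the nearest summit was 1586 bp downstream, and at dpy-5, an annular collagen, it was 1635 bp downstream. At bli-1 it was 2012 bp upstream, and it is the peak that lies in the window of its neighbour col-80. The furrow collagens dpy-7 and dpy-8 were 21288 and 14744 bp from the nearest summit, and dpy-4 was the most distant of the 18 at 34363 bp. The ranked list called on both replicates keeps peaks before the reproducibility threshold and holds every peak of the thresholded list used here. In it 4 of these 18 genes had an entry in the window, against 40.6% of all protein-coding genes. They were sqt-2, dpy-17, bli-1 and dpy-3, with −log10 IDR of 0.657, 0.582, 0.503 and 0.411. Entries for dpy-8, dpy-10, dpy-13 and bli-2 were found only in other ranked lists. IDR is the irreproducible discovery rate, a measure of how consistently peaks rank between separate sets of calls. The deposited list required a −log10 IDR of at least 2.

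The strongest peak of a collagen gene was at col-74, whose gene lies within gtap-1 on the opposite strand. The peak, on chromosome II between 5830060 and 5830228, had a signal of 232.5 and rank 1826 of 7338, where signal is the strength that the authors gave each peak, and its scale differs between lists. The signal was 138.1 in replicate 1 and 93.1 in replicate 2, and both replicates had the peak in their thresholded lists. Its summit was 244 bp upstream of the col-74 start and in an intron of gtap-1, and the nearest other coding start, that of ZK1248.11, was 1544 bp away.

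The peak at col-185 sits on another gene. It lies on X, 13511973 to 13512058, is 86 bp wide, and its summit is 936 bp upstream of col-185, inside an annotated tRNA gene, 8 bp from the start of that gene, and in an exon of the ncRNA gene H06A10.3. Its signal was 204.6 (rank 2240), with 124.1 in replicate 1 and 79.1 in replicate 2. With summits within 200 bp of a tRNA gene left out, col-185 had no peak and the collagen count was 14 of 174 (8.05%), against 18.7% of all protein-coding genes.

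Of the other 12 peaks, 5 lay at or near the start of a coding gene that is not a collagen. At col-38 the summit was 430 bp upstream of the collagen and 409 bp upstream of rpl-5, which encodes a ribosomal protein and is transcribed in the other direction (II, 8569346 to 8569689, signal 168.5, with 107.8 in replicate 1 and 63.3 in replicate 2). Start sites of 3 annotated ncRNA genes also lie there, the nearest 44 bp from the summit. At col-124, a gene within qns-1 on the opposite strand, the summit was 204 bp upstream of the collagen (IV, 10216075 to 10216418, signal 155.9, with 112.8 in replicate 1 and 44.01 in replicate 2). It was 107 bp upstream of 1 annotated start of qns-1, the gene of an NAD synthetase. That start is not the outermost of qns-1, and the summit lay in an intron of the gene. At col-151 it was 335 bp upstream of the collagen and 105 bp upstream of ugt-1, a glucuronosyltransferase gene (V, 10395386 to 10395729, signal 132.9, with 78.03 in replicate 1 and 53.5 in replicate 2). At col-71 it was 288 bp upstream of the collagen and 110 bp upstream of Y49F6B.2 (II, 3502686 to 3503029, signal 128.6, with 67.0 in replicate 1 and 61.3 in replicate 2). At col-62 it was 475 bp upstream of the collagen and closer to C15A11.7, a gene on the other strand (I, 7404677 to 7405020, signal 94.8, with 74.2 in replicate 1 and 32.9 in replicate 2). At these 5 genes the summit was closer to the neighbour than to the collagen, so distance does not assign the peak to the collagen.

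The remaining summits lay in the start-site window of no other coding gene except a further collagen, though some lay inside another coding gene. At col-63 the summit was 644 bp upstream, in exons of ceh-8 and of the ncRNA gene ZK265.11 and 15 bp from the start of ZK265.11 (I, 8245435 to 8245778, signal 165.8, with 119.7 in replicate 1 and 64.1 in replicate 2). At col-147 it was 118 bp upstream and 82 bp from the ncRNA gene T06E4.17 (V, 9633284 to 9633627, signal 64.9, with 36.4 in replicate 1 and 31.7 in replicate 2). At col-184 it was 121 bp upstream of the collagen with the nearest start of another coding gene, tre-4, 2821 bp away (X, 13469162 to 13469505, signal 98.3, with 43.9 in replicate 1 and 51.4 in replicate 2). At col-80, a gene within dph-2 on the opposite strand, it was 253 bp upstream (II, 10706776 to 10707119, signal 81.3, with 37.8 in replicate 1 and 51.1 in replicate 2), at col-119, within pdzd-8, 232 bp upstream (IV, 8979855 to 8980198, signal 79.1, with 55.8 in replicate 1 and 19.7 in replicate 2), and at col-140, 187 bp upstream (V, 5836849 to 5837192, signal 72.5, with 53.4 in replicate 1 and 29.4 in replicate 2). A second summit at col-140, with a signal of 94.4, lay in a coding exon 525 bp from the start (V, 5836238 to 5836341).

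The pair col-159 and col-160 shares 1 peak, between 13202343 and 13202686 of chromosome V. Its signal was 154.0, with 88.5 in replicate 1 and 64.7 in replicate 2. Both genes lie on the minus strand. The summit was 326 bp upstream of the first start of col-160. It is within reach of col-159 only through 1 annotated transcript that begins at 13202177, a start that col-160 has as well. The other starts of col-159 are 3131 and 3198 bp from the summit.

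**Figure D2:**
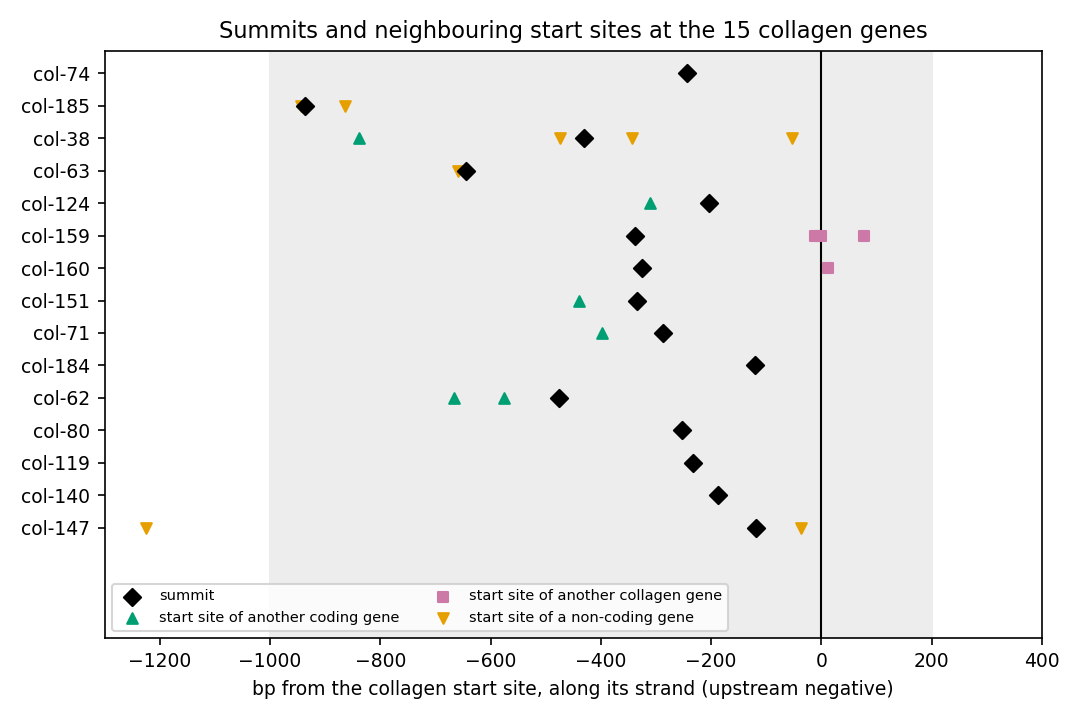
Each row is 1 of the 15 collagen genes with a peak, with its start site at 0 (bp along its strand, upstream negative), the summit as a black diamond and start sites of other coding genes, other collagens and non-coding genes as coloured marks. The shaded band is the start-site window; all summits lie upstream, from 118 to 936 bp, and 5 have the start site of a coding gene that is no collagen closer than their own.

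The summits lay upstream of the collagen start sites, and some were in the window of a further coding gene. The distances ran from 118 to 936 bp upstream with a median of 288 bp, and 15 of 15 were upstream. For the other peaks in coding gene windows the median was 231 bp upstream, and 91.7% of gene and peak pairs were upstream. More than 1 coding gene had the summit in its window at 6 of the 14 peaks (42.9%, exact interval 17.7 to 71.1%), 1 of them the collagen pair, against 17.9% of the other 3787 peaks. The nearest start site of any gene was that of a non-coding gene at 4 of the 14 (28.6%), against 13.7% of the others. It was that of a collagen at 6 of the 14, namely col-74, col-160, col-184, col-80, col-119 and col-140.

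In the replicates, thresholded peaks of both were found at 8 of the 14 (57.1%, exact interval 28.9 to 82.3%), against 59.04% of the other peaks in coding gene windows. These were the 8 with the highest signal, from 128.6 to 232.5. A further 4, at col-184, col-62, col-119 and col-140, were found in replicate 1 only, col-80 in replicate 2 only, and col-147 in neither. All 14 overlapped an entry in each replicate's ranked list. Those lists precede the threshold and hold 25335 entries in replicate 1 and 29346 in replicate 2. No such share is given for the other peaks, so the overlap cannot be read as particular to the collagens. At col-147 the ranked signals were 36.4 in replicate 1 and 31.7 in replicate 2, with −log10 IDR of 1.83 and 1.17, while the list called on both together gave 2.11. At col-119 they were 55.8 in replicate 1 and 19.7 in replicate 2, with −log10 IDR of 2.68 and 0.289. The ranked signal was higher in replicate 1 at 12 of the 14 peaks; the exceptions were col-184 (43.9 in replicate 1 and 51.4 in replicate 2) and col-80 (37.8 in replicate 1 and 51.1 in replicate 2). The scales of the replicate lists differ, so this order carries no comparison of binding.

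**Figure D3:**
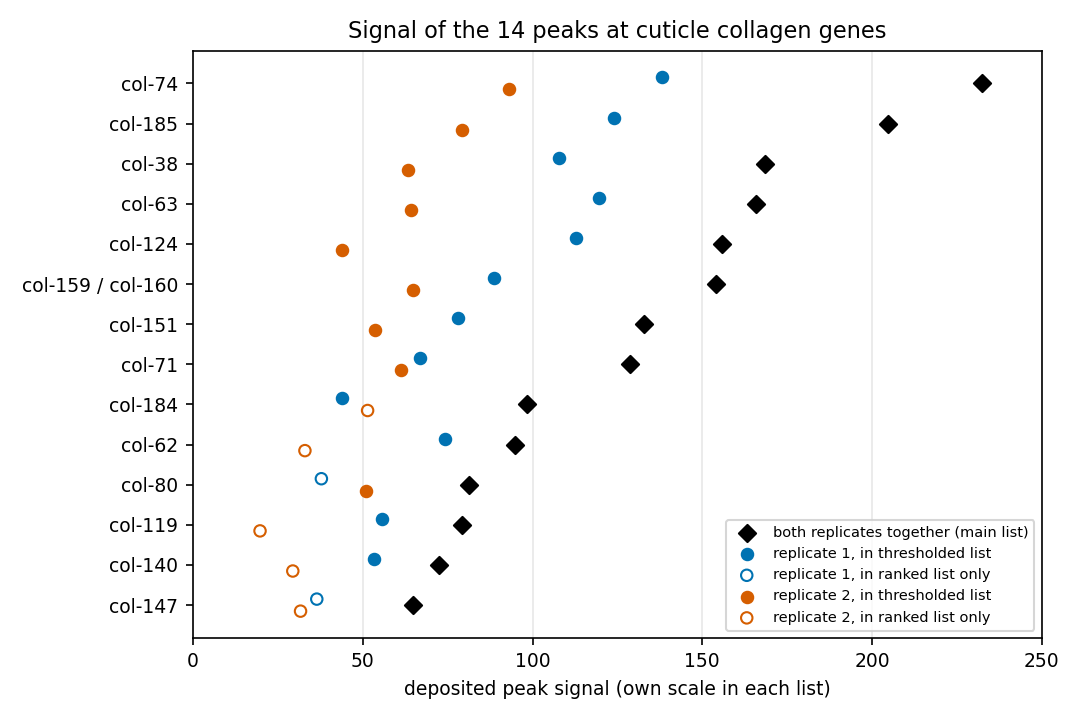
Each row is 1 of the 14 peaks, ordered by its deposited signal in the list called on both replicates (black diamonds), with the signal in replicate 1 (blue) and replicate 2 (orange), each on the scale of its own list. Filled circles are peaks in that replicate's thresholded list and open circles are entries of its ranked list only; the 8 upper rows, from col-74 at 232.5 to col-71 at 128.6, are filled in both replicates.

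The signals of collagen peaks sat near the middle of the list. Their ranks ran from 1826 (col-74) to 6800 (col-147) of 7338 with a median of 3978, and the median over the other peaks in coding gene windows was 3569. Their signals ran from 64.9 to 232.5 with a median of 130.7, against a median of 143.9 and a highest value of 1632 for the others. None of the 14 was among the 1000 strongest, which held 13.9% of the other peaks.

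Without the reproducibility threshold the share of collagen genes lay closer to that of all genes. In the ranked list called on both replicates 58 of the 174 had an entry in the window (33.3%, exact interval 26.4 to 40.9%), against 40.6% of all protein-coding genes. The ranked list of replicate 1 gave 50 genes (28.7%), against 37.8% of all, and that of replicate 2 gave 63 (36.2%), against 39.5%. In any of the 4 ranked lists 85 had one (48.9%, exact interval 41.2 to 56.5%), against 52.9% of all, and 89 had none. The 43 genes with an entry in the ranked list and no peak had a median −log10 IDR of 0.411. The genes just inside the threshold were col-147 (2.11) and col-140 (2.14), and those just outside it were col-93 (1.80), col-129 (1.57) and col-81 (1.56). The ranked entries without a peak that had the highest signal were at col-178 (82.9), col-93 (67.0), col-101 (59.6), col-81 (58.4) and col-111 (55). The value at col-178 was above those of 4 of the 14 peaks, and its entry, 789 bp upstream, had a −log10 IDR of 0.896.

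Which collagens were called depended on the list. The thresholded list of replicate 1 gave 14 genes (8.05%), against 18.2% of all protein-coding genes, and it added col-149, with a summit 173 bp upstream and a signal of 66.1 (rank 4913 of 6533). That of replicate 2 gave 10 genes (5.75%), against 13.0% of all, and it added none. The conservative list of the series gave 14 (8.05%), against 17.7% of all, without col-119 and col-147 and with col-178. With peaks found in both replicates 9 genes had one (5.17%), against 12% of all: col-38, col-63, col-71, col-74, col-124, col-151, col-159, col-160 and col-185.

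Which collagens were counted also depended on how a peak was tied to a gene. With each peak given to the closest coding start within 2000 bp the count was again 15, against 20.1% of all protein-coding genes, but 9 of those genes were shared with the first 15 and 6 were others. With the start of any gene, coding or not, it was 9, against 16.9% of all, of which 6 were shared. A narrower window, 500 bp before to 100 bp after a start, gave 13, against 15%, without col-63 and col-185. A wider one, 2000 bp before to 500 bp after, gave 19, against 24.5%, and added col-72, col-85, col-94 and col-183. With overlap of the whole peak interval in place of the summit the same 15 genes were counted, against 20.2%.

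Beyond the window, further peaks lay inside or near some collagen genes. Nearest to its upstream edge on the inside were the summits of col-185 (936 bp) and col-63 (644 bp). On the outside, counted in bp past an edge, the 5 nearest were those of col-85 (171), col-72 (251), col-183 (570), col-55 (591) and col-94 (786), the third and the fifth of them upstream of the gene. The closest lay at col-85, 371 bp downstream of its start within an intron; its signal was 255.7 (rank 1539) and it was 17 bp from the start of a tRNA gene. col-72 held 2 summits in introns, with signals of 265.9 (451 bp from the nearest start; II, 3523643 to 3523810) and 280.2 (2605 bp from the nearest start; II, 3521485 to 3521662), and both were found in both replicates. At col-183 the summit, 1570 bp upstream, is that of the col-184 peak. At col-94 it was 1786 bp upstream, in an intron of dhc-4, with a signal of 500.8. Summits lay 791 bp downstream of the start of col-55 and 1061 bp downstream of that of col-106, in both cases in intergenic sequence, with signals of 104.3 and 77.04. That behind col-181, at 1068 bp, had a signal of 269.0 and lay in a tRNA gene. col-99, the transmembrane collagen, held a summit in an intron, 3953 bp from the nearest start, with a signal of 212.7. In all, 4 of the 174 genes had a summit within the gene (2.30%, exact interval 0.630 to 5.78%), against 9.04% of all protein-coding genes. The median collagen gene is 1224.5 bp long and the median protein-coding gene 2027 bp.

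The distance to the nearest summit, however far, had a similar median in collagens and other genes. The median distance from a start site to the nearest summit was 6434 bp (quartiles 2768 and 12887 bp) for the collagens, against 6193 bp (quartiles 1560 and 15228 bp) for other protein-coding genes. A summit lay within 5000 bp of a start site for 42.0% of collagens and 44.8% of the others.

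**Figure D4:**
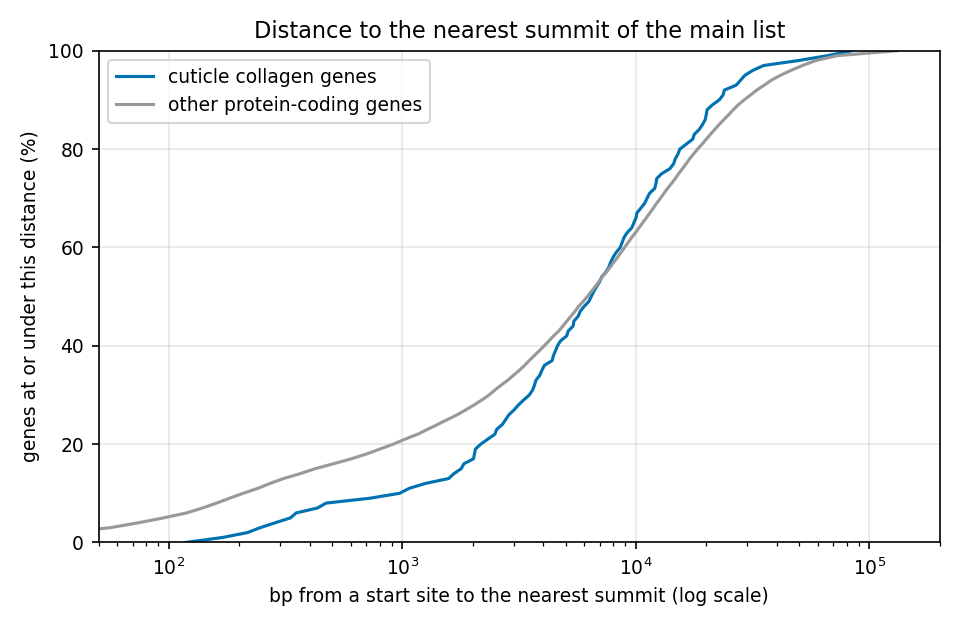
The curves give the share of genes (%) whose nearest summit in the list called on both replicates lies at or under the distance on the x axis (bp, log scale), for the 174 cuticle collagens (blue) and the other protein-coding genes (grey). The collagen curve is the lower at short distances, with 42.0% against 44.8% within 5000 bp, and the curves meet just above the medians of 6434 and 6193 bp.

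By position, the genes with a peak were spread over 5 chromosomes. Chromosome V had 5 of 32 collagens with a peak (15.6%), against 17.1% of all coding genes there. In the same way II had 4 of 32 (12.5%, against 18.3%) and I 2 of 23 (8.70%, against 17.4%). X had 2 of 30 (6.67%, against 24.9%), IV 2 of 44 (4.55%, against 17.3%) and III 0 of 13 (against 22.3%). Over all protein-coding genes X had the highest share, at 24.9%, and the autosomes 17.1 to 22.3%. In the central part of the autosomes, the middle of 3 equal lengths, 10 of 75 collagens had a peak (13.3%, exact interval 6.58 to 23.2%), against 20.9% of all coding genes there. On the arms it was 3 of 69 (4.35%, exact interval 0.906 to 12.2%), against 16.5%. Of the collagens with another collagen start within 5000 bp 6 of 53 had a peak (11.3%, exact interval 4.27 to 23.03%). Of the others 9 of 121 had one (7.44%, exact interval 3.46 to 13.7%). These intervals overlap, no matching share of all coding genes is given, and a difference was not tested.

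Several collagens lie inside other genes. Of the 174, 25 lie wholly within another protein-coding gene, all on the opposite strand of their host, and 4 of these had a peak: col-74, col-80, col-119 and col-124 (16%, against 14.9% of the 723 protein-coding genes that lie within another). bli-1, col-39, col-79 and col-80 lie together in dph-2, and col-80 alone of them had a peak.

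The genes that make, fold and regulate the collagens were counted in the same way, with no test between the lists. Among genes of collagen modification 5 of 10 had a peak (exact interval 18.7 to 81.3%). The share of all protein-coding genes, 19.1%, lies just within that interval. The 5 genes were dpy-11, a membrane thioredoxin of the hypodermis (signal 129.4), and the protein disulphide isomerase genes pdi-6 (403.4), pdi-3 (370.6), pdi-2 (244.0) and pdi-1 (227.7). The product of pdi-2 is a subunit of the cuticle prolyl hydroxylases. These 5 peaks were found in both replicates, while a second peak in the window of dpy-11 (73.6) and of pdi-2 (83.3) was not. pdi-1 shares its peak with C14B1.2 and pdi-3 with ubql-1. The prolyl hydroxylase genes dpy-18, phy-2, phy-3 and phy-4 and the lysyl hydroxylase gene let-268 had none.

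Of the genes of secretion 2 of 7 had a peak (exact interval 3.67 to 71.0%), against 19.1% of all protein-coding genes. They were sar-1, a GTPase of vesicle coats (221.8), and sec-24.1, a coat subunit (151.9). Processing and cross-linking had 0 of 9 (exact interval up to 33.6%), among them bli-4, dpy-31, bli-3 and mlt-7, and the moulting genes, such as nas-37 and mlt-10, had 0 of 8 (up to 36.9%). Of the other cuticle and apical matrix genes 1 of 15 had a peak (exact interval 0.169 to 31.9%), cut-5, with a signal of 91.1 and not found in both replicates. Of 6 other collagens, lon-3 and bli-6 of the cuticle, emb-9, let-2 and cle-1 of basement membranes and mec-5, needed by touch neurons, 0 had one (exact interval up to 45.9%). The 19.1% lies within each of these intervals.

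Of 16 regulators of cuticle genes and moulting 8 had a peak (50%, exact interval 24.7 to 75.3%), against 19.1% of all protein-coding genes. The strongest were at peb-1, a DNA-binding protein needed for moulting (299.1, X, 2215192 to 2215412), and myrf-1, a membrane-bound factor of larval development (297.3, II, 10502731 to 10502969). dpy-22, a Mediator subunit, had 209.5, the nuclear receptors nhr-41 and nhr-85 had 177.03 and 164.7, and the zinc finger factor blmp-1 had 160.2. lin-14, which sets early larval fates, had 129.2 and 3 peaks in its window, and mab-10, the partner of LIN-29, had 126.9 and a second peak of 91.2. Of the 11 peaks at these genes 9 were found in both replicates, and the exceptions were the strongest at lin-14 and the second at mab-10. nhr-23, nhr-25, lin-29, elt-1, elt-3, grh-1, bed-3 and lin-42 had none. Of the 8 strongest signals, 1 for each gene, only those of lin-14 and mab-10 were below 130.7, the median of the collagen peaks. The same held for 143.9, the median of the other peaks in coding gene windows. The strongest signal of a gene and a median over all peaks are unlike measures, and no difference was tested.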

How the data were processed

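DMD-6 ChIP-seq of tagged L4 larvae was deposited as peak lists for 2 replicates, numbered as in the labels. Per the labels and the accompanying descriptions the assembly is ce11; no aligner or peak caller is named there. Each deposited peak has a score, 830 to 1000 in the list used, and a signal, whose formula the labels do not state and which was used to rank peaks within a list. Ranked lists, as deposited, also hold −log10 of the global IDR. The list called on both replicates (7338 peaks) was found whole in a ranked list, with −log10 IDR of at least 2, an IDR of 0.01. Sequencing depth is unknown; peaks called numbered 6533 in replicate 1 and 4653 in replicate 2.

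Gene models came from Ensembl release 115 and sequence from RefSeq WBcel235, whose chromosomes extend past every gene and peak. Summits were assigned in Python 3.11.15, and windows were tested on simulated summits. Intervals are exact binomial at 95% and cover counting only. No list was tested, and no value was adjusted. The members and lists were chosen with earlier results of these data known. Of 72 genes in 7 further lists 71 were found; tango-1 was not. Named genes were all members with a peak, the 18 phenotype-named members, 5 nearest outside the window (by bp past its edge, and col-106 and col-181 by bp from the start), 5 with the highest ranked signal and no peak, neighbours nearer a summit, and list genes with a peak; col-149, col-99 and other genes without a peak were named after their values were seen.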

Additional observations from a re-analysis of the deposited data

How the results depend on the processing

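The collagen genes had a peak less often than other protein-coding genes in every alternative run. The count of 15 ran between 13 and 19 with the narrower and wider windows, the conservative list, peak intervals in place of summits, the nearest coding start, and tRNA genes left out. Without 1 replicate it ran from 10 to 14. It was 9 with peaks found in both replicates, 9 when the closest start of any gene within 2000 bp took each peak, and 0 among the 1000 strongest peaks. The 7 further lists together had 16 of 71 genes with a peak (22.5%), against 19.1% of all protein-coding genes. The count was also 16 without replicate 2, against 18.2% of all, and without replicate 1, against 13.0%. Among the 1000 strongest peaks it was 2 (2.82%), against 3.17% of all. Of the 14 collagen peaks 8 overlapped both replicates' thresholded lists. All 14 overlapped both ranked lists, which precede the threshold, with no share of other peaks to set beside this count. The median rank was 3978 of 7338 (54.2% down the list) and 3938.5 of 6626 in the shorter conservative list (59.4%). By score the median rank was 3250, a tied rank that says nothing of stability. Of the 14 peaks 12 hold the top score, as do 6499 of all 7338. Counts of single lists were labelled as moved in 17 of 77 cases. For counts the label does not mean leaving the interval: secretion was so labelled at 57.1% in the wider window, inside 3.67 to 71.0%. The collagen count was labelled as moved in 3 alternative runs, those with 9, 9 and 0 genes, and as the same in 8. Of 14 word shares 2 left their interval when the window changed. With 14 peaks, unknown depth and 1 group, small differences were not detectable. The causes were not tested.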
